A study of Mus musculus with 6 samples.

Results

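The genes examined here encode the cytosolic translation initiation factors (eIF) and elongation factors (eEF) of mouse heart. They were taken by name from the table of expression values: protein-coding genes whose symbol begins with Eif or Eef followed by a digit, without 9 of the 68 such genes that the naming rule set aside. This left 59 genes of 22046 protein-coding genes and 54532 genes in all. Hearts of 2 groups of 3 mice were compared. All 6 mice carried loxP-flanked Mrps5 alleles (Mrps5 fl/fl) and received tamoxifen at 45 mg per kg per day for 5 days from 8 weeks of age, and the hearts were collected 12 weeks after tamoxifen. The Ctrl mice were Mrps5 fl/fl without MCM. The cKO mice were Mrps5 fl/fl;MCM, where MCM is a MerCreMer transgene under a cardiomyocyte promoter, so that only cardiomyocytes recombine and MCM itself was present in cKO hearts alone. The product of Mrps5 belongs to the small subunit of the mitochondrial ribosome, which does not use these cytosolic factors.

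Translation of a nuclear-encoded mRNA begins when eIF1, eIF1A, eIF3, eIF5 and eIF2, which carries the initiator tRNA, gather on the small (40S) ribosomal subunit. The mRNA is brought to it by eIF4F, made of the cap-binding protein eIF4E, the RNA helicase eIF4A and the scaffold eIF4G. The 4E-binding proteins (4E-BPs) hold eIF4E away from eIF4G, and mTORC1 releases eIF4E by phosphorylating them. During elongation eEF1A brings each aminoacyl-tRNA to the ribosome and eEF2 moves the ribosome along the mRNA. Adult heart muscle is known for its use of eEF1A2, a form limited to muscle and neurons, beside the widespread eEF1A1.

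Each heart gave a library of 15989322 to 24875499 reads assigned to genes. Values are FPKM (sequenced fragments divided by the length of the gene and the size of the library), so levels of different genes are compared per length. The library size that the values imply was 0.913 to 0.980 of the assigned reads in the Ctrl hearts and 1.06 of them in each cKO heart. Compared with a scaling to assigned reads, the FPKM therefore place cKO lower against Ctrl by 0.15 on the log2 scale. Mrps5 itself was at 5.20 to 6.45 FPKM in the Ctrl hearts, against 1.12 to 1.31 FPKM in the cKO hearts. The tissue held the markers of heart muscle, and their summed level was 14155 to 18046 FPKM in the Ctrl hearts, against 8508 to 15179 FPKM in the cKO hearts, with 5 of 7 lower in cKO. Endothelial markers were lower in cKO for 4 of 5 genes (summed 114 to 132 against 74.6 to 87.2 FPKM). Of the smooth muscle and pericyte markers, 1 of 3 tested was higher and 1 lower (135 to 153 against 86.1 to 109 FPKM). Fibroblast markers had 1 higher and 1 lower of 6 (150.4 to 175 against 137 to 149.7 FPKM), and macrophage markers had 1 lower of 5 (144 to 205 against 128 to 181 FPKM). None of 4 atrial markers passed the test, and their sum ranged from 128 to 2052 FPKM among Ctrl and from 575 to 1652 FPKM among cKO hearts. Of 4 neuronal markers, Tubb3 was higher in cKO, Syt1 was listed at 0 in every heart, and Snap25 and Elavl4 stayed below 0.02 FPKM on average in either group. Y-linked genes were at 0 in cKO replicate 2 alone. In tissue RNA, fewer cells of a type and less RNA per cell cannot be told apart, and the part of these differences in the results below was not tested.

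Translation factor genes were more often higher than lower in cKO hearts. Of the 59 genes, 56 had a mean of at least 0.5 FPKM and were tested, and their group means were 0.535 FPKM or more in both groups. At a limma adjusted p under 0.05, 30 of them (53.6%) were higher in cKO and 4 (7.14%) were lower. Among all 12944 genes tested, 16.3% were higher and 17.0% lower, and 33.3% were called in either direction. With a mean of at least 1 FPKM required, 18.1% of all genes were higher and 18.6% lower. Shares among genes of a level like that of the factors were not computed. The cKO and Ctrl hearts did not overlap for 40 of the 56 (71.4%), against 51.2% of all genes. The median log2 fold change of the 56 genes was 0.24, and that of all genes was -0.02. Together the 59 genes made up 0.703% to 0.777% of the FPKM total of a Ctrl heart and 1.06% to 1.13% of that of a cKO heart. Without the transcripts of the mitochondrial genome in the total, these ranges were 1.21% to 1.34% and 1.60% to 1.82%. Such sums weigh the most abundant genes most. Eef1a1 alone went from a mean of 386 FPKM in the Ctrl hearts to 923 FPKM in the cKO hearts.

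The split of calls over all genes depended on scaling. Scaled to the total without the mitochondrial genome, 20.5% of all genes were higher and 12.5% lower, and the factors stood at 31 higher and 2 lower. With limma's voom on the reads recovered from the FPKM values, 26.2% of all genes were higher and 11.2% lower, the median of all genes moved to 0.13, and the factors stood at 33 higher and 2 lower. Scaled to the assigned reads alone, which was chosen after seeing the data, 25.2% of all genes were higher and 10.7% lower, the median of all genes was 0.09, and the factors again stood at 33 higher and 2 lower. Relative to the median of all genes, the median of the factors was 0.25 in the analysis of the deposited FPKM and 0.27, 0.30 and 0.29 in these alternatives. All 30 higher genes were called higher in each of them. Eif4ebp2 and Eef2k were no longer called lower in any.

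Leaving out single hearts gave 21 to 28 higher and 2 to 4 lower genes. Without Ctrl replicate 3 the number of lower genes was 2, since Eif4ebp2 and Eef2k lost the call. Leaving out Ctrl replicate 1, which had the highest atrial markers, together with cKO replicate 2, which had no Y-linked RNA, left 22 higher and 2 lower genes. With the atrial markers as a covariate there were 21 higher and 2 lower genes, and Eef2, Eef1g, Eef1b2, Eef1d, Eif3h, Eif3i, Eif4h, Eif2b2, Eif2b5, Eif4ebp2 and Eef2k lost the call. Without a filter on low values, Eef2, Eef1g, Eif3h, Eif2b2, Eif2b5, Eef2k and Eef1akmt4 lost it. The cKO hearts were not equally far from Ctrl. Of the 30 higher genes, 18 had their highest cKO value in cKO replicate 1, 10 in cKO replicate 2 and 2 in cKO replicate 3. Their lowest cKO value was in cKO replicate 1 for 5 genes, in cKO replicate 2 for 16 and in cKO replicate 3 for 9. The mean of log2(FPKM + 1) over all 56 tested factors was 4.89, 4.80 and 4.86 in cKO replicates 1, 2 and 3, so cKO replicate 2 was nearest to Ctrl. The sum of the cardiomyocyte markers was lowest in cKO replicate 1.

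**Figure D1:**
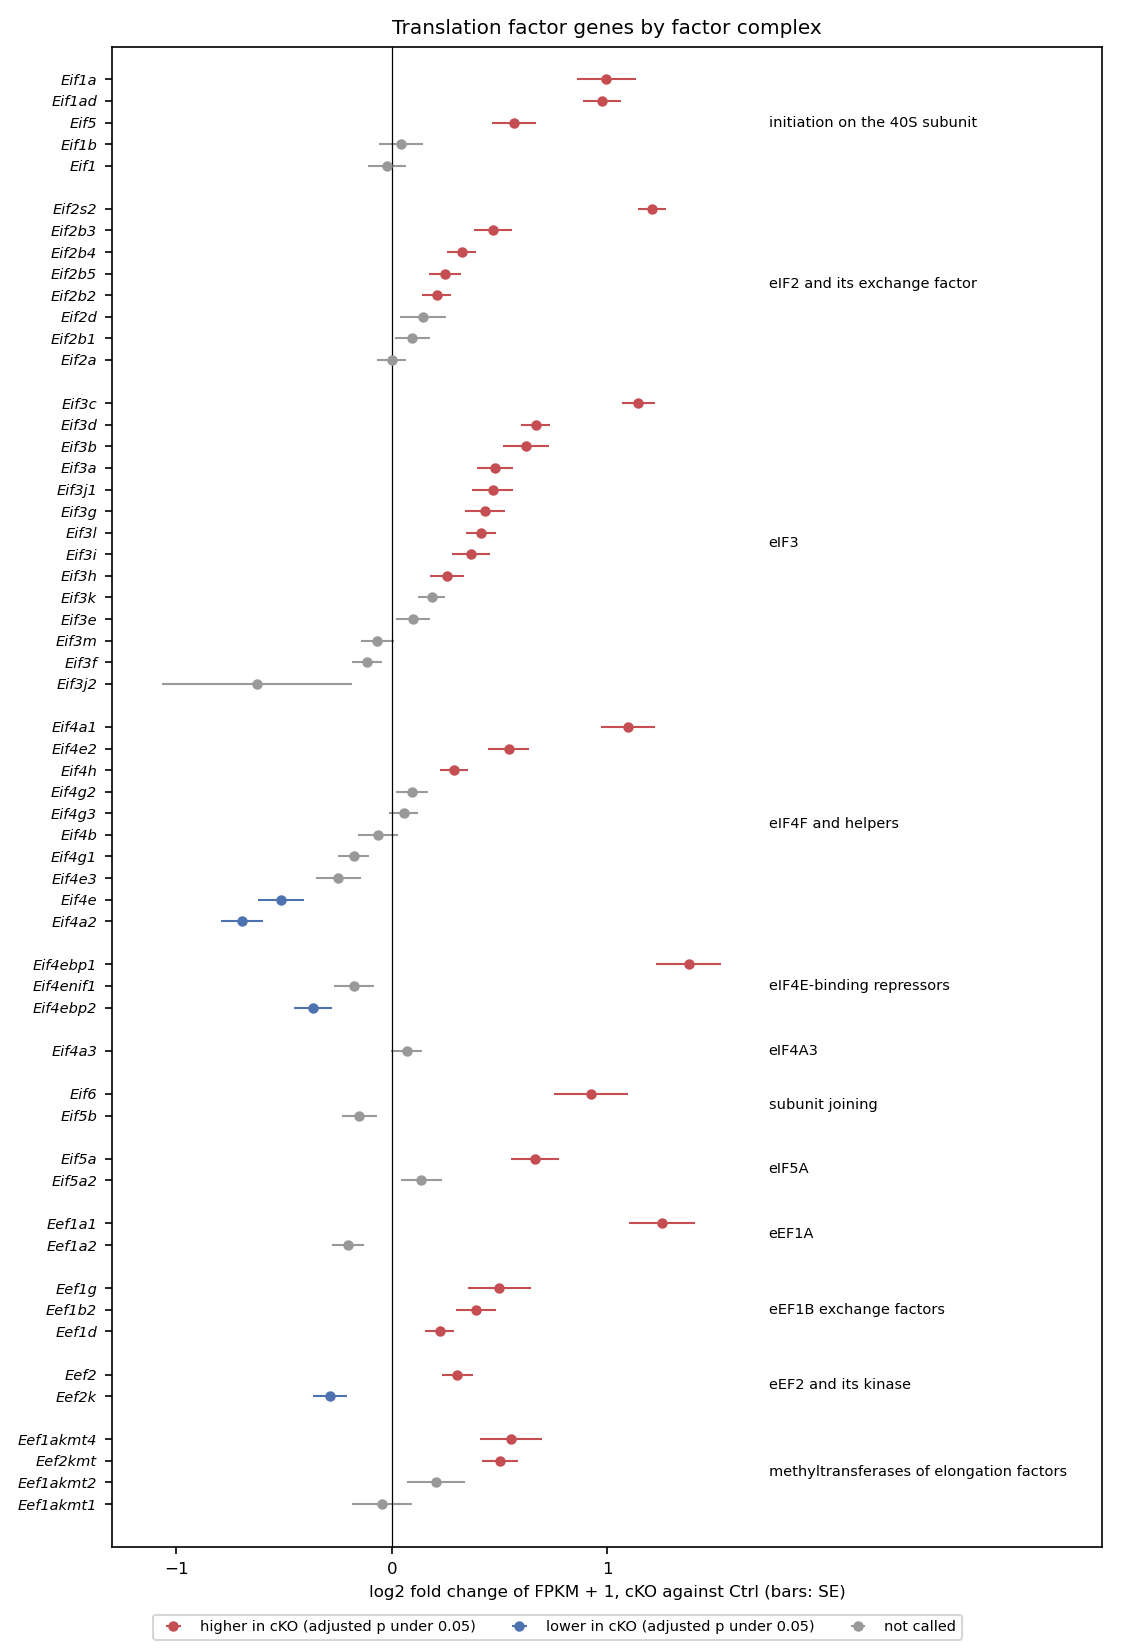
Log2 fold change of FPKM + 1 in cKO against Ctrl hearts (x axis) for each of the 56 tested translation factor genes (y axis), ordered within 12 factor groups. Points are fitted values and bars their SE, with red for genes called higher, blue for genes called lower and grey for genes not called. Of the 12 groups, 11 hold no more than 1 lower gene and the eIF4F group holds 2.

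Of 5 genes grouped by name as factors that first bind the 40S subunit, 3 were higher in cKO and none was lower. Their median log2 fold change was 0.57. Eif1a encodes eIF1A, which helps the 40S subunit scan for the start codon. It had 7.07, 6.50 and 6.99 FPKM in Ctrl replicates 1, 2 and 3, against 17.7, 11.8 and 15.0 FPKM in the same order of cKO replicates. Every cKO heart was above every Ctrl heart, and cKO replicate 1 was the highest. On average Eif1a stood at 6.85 ± 0.311 and 14.9 ± 2.93 FPKM (± is the SD over n = 3 hearts here and below). The log2 fold change was 1.00 (SE 0.136, adjusted p = 0.00299). Eif1ad, which encodes a relative of eIF1A, rose by 0.98 and Eif5, the factor that makes eIF2 hydrolyse its GTP at the start codon, rose by 0.57. Eif1ad overlaps Banf1 on the opposite strand over 15.3% of its exonic bases. Banf1 rose by 0.79, and whether the counting used strand was not given, so the value of Eif1ad is uncertain to that extent. The same holds for Eif3j1 (19.0% of exonic bases, with Spg11), Eef2kmt (17.6%, Alg1), Eif5b (16.8%, Rev1), Eef1akmt4 (8.86%, Alg3) and Eif2b4 (7.85%, Snx17). The start codon factor eIF1 is encoded by Eif1 and Eif1b, which did not pass the test. Eif1 was at 217 ± 9.77 FPKM in the Ctrl hearts, against 214 ± 17.8 FPKM in the cKO hearts, and was the most abundant of the group.

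The largest change among the genes of eIF2 and its exchange factor was in Eif2s2, the beta subunit of eIF2 (chromosome 2, 154871410 to 154892935, minus strand, GRCm38). Eif2s2 had 14.5, 14.6 and 13.7 FPKM in the Ctrl hearts, against 35.3, 33.7 and 33.8 FPKM in the cKO hearts. The hearts of each group lay close together and the groups were far apart. The means were 14.3 ± 0.493 and 34.3 ± 0.902 FPKM, which is a log2 difference of 1.21 (SE 0.0659, adjusted p = 0.000184). A processed pseudogene, Gm9892, shares 4.36% of the 150-base stretches of Eif2s2 transcripts, and it was also higher, at 9.21 ± 0.253 FPKM in the Ctrl hearts, against 25.3 ± 1.77 FPKM in the cKO hearts. With the reads of both added, the log2 fold change of Eif2s2 was 1.23.

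The exchange factor eIF2B, which reloads eIF2 with GTP, has 5 subunit genes, and 4 of them were higher, with changes smaller than that of Eif2s2. Eif2b3 rose by 0.47, Eif2b4 by 0.32, Eif2b5 by 0.25 and Eif2b2 by 0.21. Eif2b1 had a log2 fold change of 0.10 and was not called. The calls of Eif2b2 and Eif2b5 were close to the threshold. Eif2b2 (adjusted p = 0.0494) was called without cKO replicate 2 and lost the call without any other single heart, where its log2 fold change was 0.19 to 0.23. Eif2b5 (adjusted p = 0.0395) likewise kept the call only without cKO replicate 2, and was at 0.20 to 0.27 without each of the others. Eif2a and Eif2d, which encode factors that can bring initiator tRNA without eIF2, had log2 fold changes of -0.0009 and 0.15 and did not pass the test.

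The subunits of eIF3, the large scaffold on the 40S subunit, were mostly higher in cKO. Of 14 genes tested, 9 were higher and none was lower, and the median log2 fold change was 0.39. Eif3c (chromosome 7, 126546455 to 126566411, minus strand, GRCm38), which encodes a subunit of the structural core, changed most. It had 37.6, 36.6 and 36.6 FPKM in the Ctrl hearts, against 83.3, 77.0 and 88.7 FPKM in the cKO hearts. The means were 36.9 ± 0.569 and 83.0 ± 5.87 FPKM, and the log2 fold change of Eif3c was 1.15 (SE 0.0764, adjusted p = 0.000385). Eif3d, the subunit that can itself bind the cap of some mRNAs, rose by 0.67.

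The other 7 subunit genes called higher rose by 0.26 (Eif3h) to 0.62 (Eif3b), with Eif3a at 0.48, Eif3j1 at 0.47, Eif3g at 0.43, Eif3l at 0.41 and Eif3i at 0.37. Eif3k (0.19, adjusted p = 0.0576) was not called although its groups did not overlap, and it was called under 5 alternatives, including median-of-ratios scaling (0.21, adjusted p = 0.0402). Eif3e (0.10), Eif3m (-0.07) and Eif3f (-0.11) were not called, and Eif3e was called higher with voom (0.26) and when scaled to assigned reads (0.24). The 5 subunit genes Eif3a, Eif3b, Eif3c, Eif3g and Eif3i, which correspond to the core conserved in budding yeast, were all called higher, with a median of 0.48. Of the 7 other subunits d, e, f, h, k, l and m, 3 were called higher, with a median of 0.19. This split was chosen after the values were seen and was not tested. The spread between subunits within a heart, as the SD of log2 FPKM over all eIF3 genes except Eif3j2, was 1.01 ± 0.0104 in Ctrl and 0.997 ± 0.0128 in cKO hearts (exact permutation p = 0.2). The calls of Eif3h and Eif3i depended on single hearts. Eif3h (adjusted p = 0.0465) kept its call only without cKO replicate 2 and was at 0.22 to 0.30 without each other heart. Eif3i lost the call without Ctrl replicate 1 (0.37), Ctrl replicate 3 (0.35) or cKO replicate 3 (0.36).

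**Figure D2:**
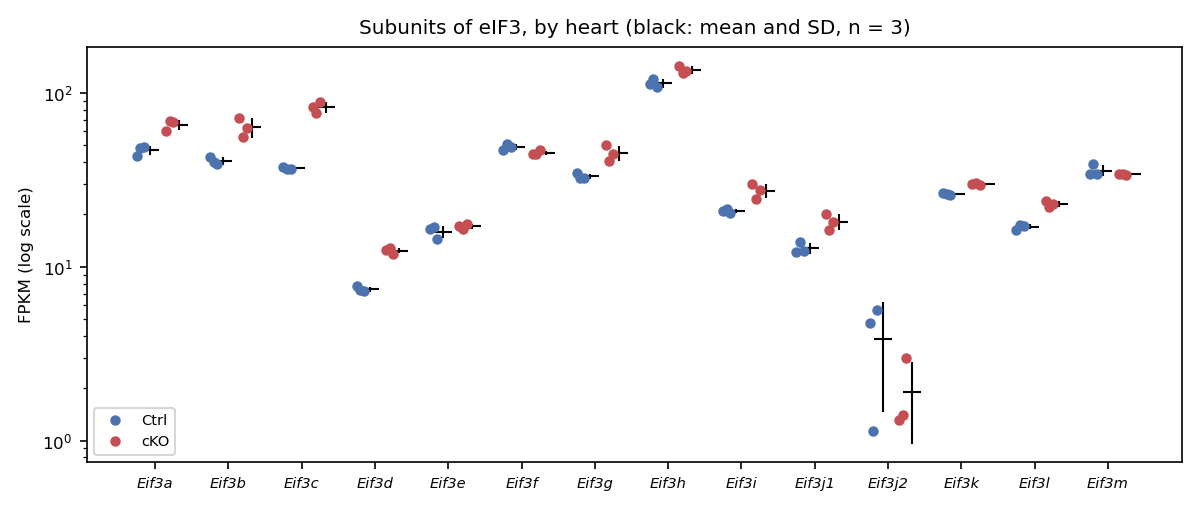
FPKM on a log axis of the 14 eIF3 subunit genes in each of the 3 Ctrl (blue) and 3 cKO (red) hearts, with the mean and SD of each group in black. Eif3c shows the widest separation of the groups, at 36.6 to 37.6 FPKM in Ctrl and 77.0 to 88.7 FPKM in cKO, and Eif3j2 spreads from 1.13 to 5.65 FPKM within Ctrl.

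On the log2 scale, the eIF3 gene with the largest SE of its fold change was Eif3j2, a near-copy of Eif3j1 that encodes the loosely bound subunit j. It had 4.76, 1.13 and 5.65 FPKM in the Ctrl hearts, against 1.32, 1.40 and 2.99 FPKM in the cKO hearts, and the groups overlapped. The log2 fold change of Eif3j2 was -0.63 (SE 0.441, adjusted p = 0.312), and without Ctrl replicate 2 it was -1.14 and called. Of the 150-base stretches of Eif3j2 transcripts, 77.1% were also in Eif3j1 transcripts. Among the Ctrl hearts, Eif3j1 was lower in those in which Eif3j2 was high. With the reads of both genes added, at the length of Eif3j1, the level was 14.1, 14.4 and 14.6 FPKM in the Ctrl hearts, against 20.6, 16.9 and 19.3 FPKM in the cKO hearts. The SD among Ctrl hearts fell from 0.950 FPKM for Eif3j1 alone to 0.236 FPKM for the sum. Among cKO hearts the SD did not fall, at 1.84 FPKM for Eif3j1 alone and 1.85 FPKM for the sum. The sum rose by 0.37 on the log2 scale (adjusted p = 0.0172).

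The genes grouped by name as eIF4F and its helpers moved in both directions, with 3 of 10 higher, 2 lower and a median log2 fold change of -0.0036. The helicase genes Eif4a1 and Eif4a2 encode alternative forms of eIF4A. Eif4a1 (chromosome 11, 69666936 to 69672423, minus strand) had 41.3, 34.8 and 30.8 FPKM in the Ctrl hearts, against 86.0, 72.7 and 72.4 FPKM in the cKO hearts. Its means were 35.6 ± 5.31 and 77.0 ± 7.76 FPKM, which is a log2 difference of 1.10 (SE 0.126, adjusted p = 0.00184). Eif4a2 (chromosome 16, 23107444 to 23114136, plus strand) had 79.2, 81.8 and 76.5 FPKM in the Ctrl hearts, against 42.7, 54.5 and 49.0 FPKM in the cKO hearts. Its means were 79.2 ± 2.68 and 48.7 ± 5.86 FPKM, and it fell by 0.70 on the log2 scale (SE 0.0995, adjusted p = 0.00338).

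In neither helicase gene did the groups overlap, and the order of the pair was turned: Eif4a2 was above Eif4a1 in every Ctrl heart and below it in every cKO heart. The share of Eif4a1 in the summed FPKM of both was 34.3%, 29.8% and 28.7% in Ctrl and 66.8%, 57.2% and 59.6% in cKO hearts. The means were 30.9% ± 2.94 and 61.2% ± 5.00 (exact permutation p = 0.1, the smallest that 3 against 3 hearts allow). The sum itself went from 115 ± 6.81 to 126 ± 3.86 FPKM, without overlap between the groups. The size of this rise depends on scaling, since FPKM place cKO lower by 0.15 on the log2 scale than assigned reads do. The processed pseudogene Eif4a-ps4 shares 17.8% of the 150-base stretches of Eif4a1 transcripts and was higher in cKO as well, at 25.7 ± 2.26 against 56.7 ± 5.08 FPKM. With its reads added, Eif4a1 had the same log2 fold change of 1.10.

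The cap-binding protein genes also differed in direction. Eif4e and Eif4e2 were chosen for description per heart after their values were seen. Eif4e, which encodes the cap-binding subunit of eIF4F, had 21.5, 24.7 and 19.6 FPKM in the Ctrl hearts, against 13.6, 15.9 and 15.5 FPKM in the cKO hearts, and it fell by 0.51 on the log2 scale (SE 0.106, adjusted p = 0.0115). Eif4e2 encodes 4EHP, a cap-binding protein that does not join eIF4G and is known as a repressor. It had 6.60, 7.23 and 6.37 FPKM in the Ctrl hearts, against 11.5, 9.99 and 9.36 FPKM in the cKO hearts, and rose by 0.54 (SE 0.0933, adjusted p = 0.00626). The groups overlapped for neither gene. Eif4e3 had a log2 fold change of -0.25 (adjusted p = 0.109) with no overlap between groups in FPKM. Over the alternatives in scaling, fit and hearts, the log2 fold change of Eif4e3 was -0.33 to -0.11, never called. The share of Eif4e in the sum of the 3 genes was 44.5% ± 0.251 in Ctrl and 35.4% ± 2.04 in cKO hearts (exact permutation p = 0.1). The oocyte form Eif4e1b was listed at 0 in all 6 hearts and was not tested.

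The genes of the eIF4G family did not pass the test. Eif4g1 was at 83.7 ± 2.30 FPKM in the Ctrl hearts, against 74.0 ± 3.41 FPKM in the cKO hearts, without overlap in FPKM. Its log2 fold change was -0.18 (adjusted p = 0.0960), and -0.03 with voom or when scaled to assigned reads. Overlap between groups was examined in FPKM alone. Eif4g2 and Eif4g3 had log2 fold changes of 0.09 and 0.06, and Eif4g2 was called higher with voom (0.25) and when scaled to assigned reads (0.24). Of the genes whose products stimulate the helicase, Eif4h rose by 0.29 and lost its call without Ctrl replicate 3 (0.27) or with the atrial covariate (0.28), whereas Eif4b (-0.06) was not called. Eif4a3 encodes a helicase of the exon junction complex and not of eIF4F. It had 18.3, 17.0 and 16.4 FPKM in the Ctrl hearts, against 17.9, 19.0 and 17.5 FPKM in the cKO hearts, and its log2 fold change was 0.07 (SE 0.0736, adjusted p = 0.504).

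The 4E-BP genes did not move together. Eif4ebp1 (chromosome 8, 27260329 to 27276674, plus strand) had the largest fitted increase of the 56 genes tested. It had 42.6, 41.9 and 30.8 FPKM in the Ctrl hearts, against 114, 89.3 and 99.1 FPKM in the cKO hearts. The lowest cKO heart was well above the highest Ctrl heart. The means were 38.4 ± 6.64 and 101 ± 12.6 FPKM, which is a log2 difference of 1.38 (SE 0.150, adjusted p = 0.00161).

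Eif4ebp2 had 21.7, 20.0 and 20.9 FPKM in the Ctrl hearts, against 16.3, 14.4 and 17.3 FPKM in the cKO hearts, again without overlap. Eif4ebp2 fell by 0.36 on the log2 scale (SE 0.0869, adjusted p = 0.0190). The call of Eif4ebp2 was lost without Ctrl replicate 1 (-0.34, adjusted p = 0.0659) and without Ctrl replicate 3 (-0.36, adjusted p = 0.0599). Eif4ebp3 was near 0, at 0.211, 0.323 and 0.333 FPKM in the Ctrl hearts, against 0, 0.518 and 0.214 FPKM in the cKO hearts, and was not tested. The share of Eif4ebp1 in the summed FPKM of the 3 genes was 64.2% ± 4.40 in Ctrl and 86.1% ± 1.31 in cKO hearts (exact permutation p = 0.1). Relative to the level of Eif4e, the summed level of Eif4ebp1 and Eif4ebp2 was 2.99, 2.50 and 2.64 in Ctrl and 9.59, 6.50 and 7.51 in cKO hearts, on the FPKM scale. Eif4enif1, which encodes the eIF4E transporter 4E-T, had a log2 fold change of -0.17 (adjusted p = 0.191).

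**Figure D3:**
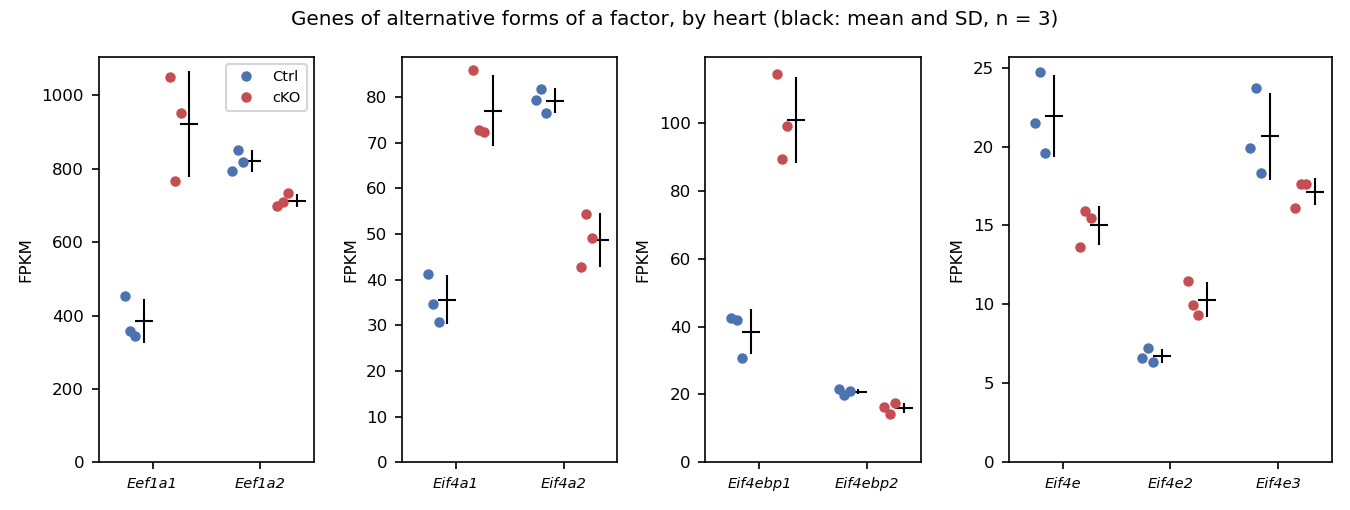
FPKM by heart in Ctrl (blue) and cKO (red), with the mean and SD of 3 hearts in black, for genes that encode alternative forms of eEF1A, eIF4A, the 4E-BPs and the cap-binding proteins. Eef1a1, Eif4a1, Eif4ebp1 and Eif4e2 lie higher in every cKO heart, and Eef1a2, Eif4a2, Eif4ebp2, Eif4e and Eif4e3 lie lower, with Eef1a2 and Eif4e3 not called.

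Of the factors that act when the 60S subunit joins, Eif6 was higher and Eif5b was not called. Eif6 encodes a factor that keeps free 60S subunits from joining too early and takes part in their maturation. It had 13.8, 13.5 and 11.8 FPKM in the Ctrl hearts, against 33.9, 21.4 and 23.0 FPKM in the cKO hearts, with cKO replicate 1 far above the other cKO hearts and no overlap. The log2 fold change of Eif6 was 0.93 (SE 0.171, adjusted p = 0.00798). Eif5b, the GTPase that promotes joining, was at 17.6 ± 0.711 FPKM in the Ctrl hearts, against 15.8 ± 1.35 FPKM in the cKO hearts.

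Eif5a encodes eIF5A, which carries the modified lysine hypusine and helps ribosomes past stalling sequences. It had 135, 144 and 131 FPKM in the Ctrl hearts, against 246, 187 and 221 FPKM in the cKO hearts. Its means were 137 ± 6.31 and 218 ± 29.3 FPKM, which is a log2 difference of 0.66 (SE 0.111, adjusted p = 0.00575). Eif5a2 was low, with 0.501 to 0.869 FPKM over the 6 hearts, and was not called.

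The most abundant translation factor gene was Eef1a2 in every Ctrl heart and Eef1a1 in every cKO heart. Eef1a1 (chromosome 9, 78478449 to 78489151, minus strand) had 454, 357 and 346 FPKM in the Ctrl hearts, against 1050.4, 766 and 952 FPKM in the cKO hearts. The means were 386 ± 59.4 and 923 ± 144 FPKM, and the log2 fold change of Eef1a1 was 1.26 (SE 0.155, adjusted p = 0.00233). Eef1a2 (chromosome 2, 181147653 to 181157014, minus strand) had 794, 851 and 817 FPKM in the Ctrl hearts, against 697, 708 and 732 FPKM in the cKO hearts. All cKO hearts were below all Ctrl hearts in Eef1a2, with means of 821 ± 29.0 and 713 ± 17.9 FPKM. The log2 fold change of Eef1a2 was -0.20 (SE 0.0757), and its adjusted p of 0.0801 did not pass the threshold. Scaled to assigned reads it was -0.05.

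Eef1a2 exceeded Eef1a1 in every Ctrl heart, and Eef1a1 exceeded Eef1a2 in every cKO heart. The share of Eef1a1 in the sum of the pair was 36.4%, 29.6% and 29.7% in Ctrl and 60.1%, 52.0% and 56.5% in cKO hearts. The means were 31.9% ± 3.89 and 56.2% ± 4.08, a difference of 24.3 percentage points (exact permutation p = 0.1, the smallest possible). Counted in reads instead of FPKM, the share was 35.9% ± 4.11 and 60.5% ± 3.96. The summed level of the pair was 1206 ± 42.3 FPKM in the Ctrl hearts, against 1635 ± 143 FPKM in the cKO hearts. Of the 150-base stretches of Eef1a1 transcripts, 5.31% were shared with a pseudogene (Gm13456) at 3.05 FPKM in the Ctrl hearts, against 6.59 FPKM in the cKO hearts. Adding the reads of Gm13456 left the log2 fold change of Eef1a1 at 1.25.

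**Figure D4:**
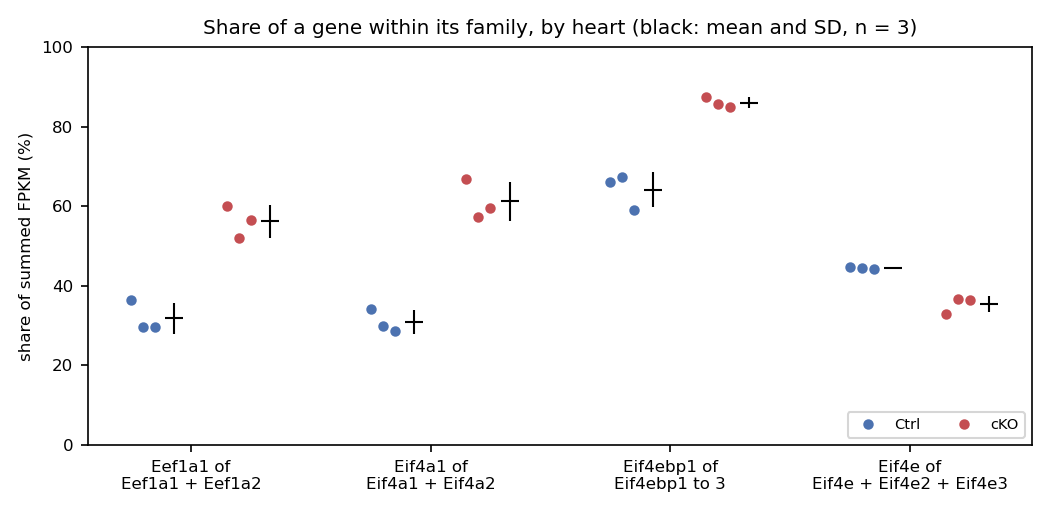
Share of a gene in the summed FPKM of its family (y axis, percent) in each Ctrl (blue) and cKO (red) heart, with the mean and SD of 3 hearts in black. The shares of Eef1a1, Eif4a1 and Eif4ebp1 are higher in every cKO heart than in any Ctrl heart, and the share of Eif4e is lower.

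The exchange factor of eEF1A, eEF1B, has 3 subunit genes, and all 3 were higher in cKO. Eef1g, the gamma subunit, had 107, 89.1 and 71.9 FPKM in the Ctrl hearts, against 117, 135 and 125 FPKM in the cKO hearts. Its log2 fold change was 0.50 (SE 0.147, adjusted p = 0.0393). Eef1b2, the alpha subunit that exchanges the nucleotide, rose by 0.39, and Eef1d, the delta subunit, rose by 0.22. These calls were close to the threshold. Eef1g kept the call only without Ctrl replicate 1, with 0.35 to 0.55 without each other heart. Eef1d lost it whichever single heart was left out (0.20 to 0.25), and Eef1b2 lost it without Ctrl replicate 2 (0.40) or Ctrl replicate 3 (0.36), or with the atrial covariate (0.40).

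The wide spread of Eef1g among Ctrl hearts was mirrored in a processed pseudogene, Gm4366, with which Eef1g shares 26.4% of its 150-base stretches. Gm4366 had 12.0, 42.2 and 69.1 FPKM in the Ctrl hearts, against 53.2, 14.5 and 12.0 FPKM in the cKO hearts, so that its order among the Ctrl hearts was the inverse of that of Eef1g. In cKO the heart with the highest Gm4366 had the lowest Eef1g. With both sets of reads added, at the length of Eef1g, the level was 114, 111 and 108 FPKM in the Ctrl hearts, against 144, 142 and 132 FPKM in the cKO hearts. The SD among Ctrl hearts was 17.8 FPKM for Eef1g alone and 3.05 FPKM for the sum. The sum rose by 0.33 on the log2 scale (adjusted p = 0.0146), against 0.39 for Eef1b2, so which eEF1B gene had the larger change depended on how these reads were counted.

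**Figure D5:**
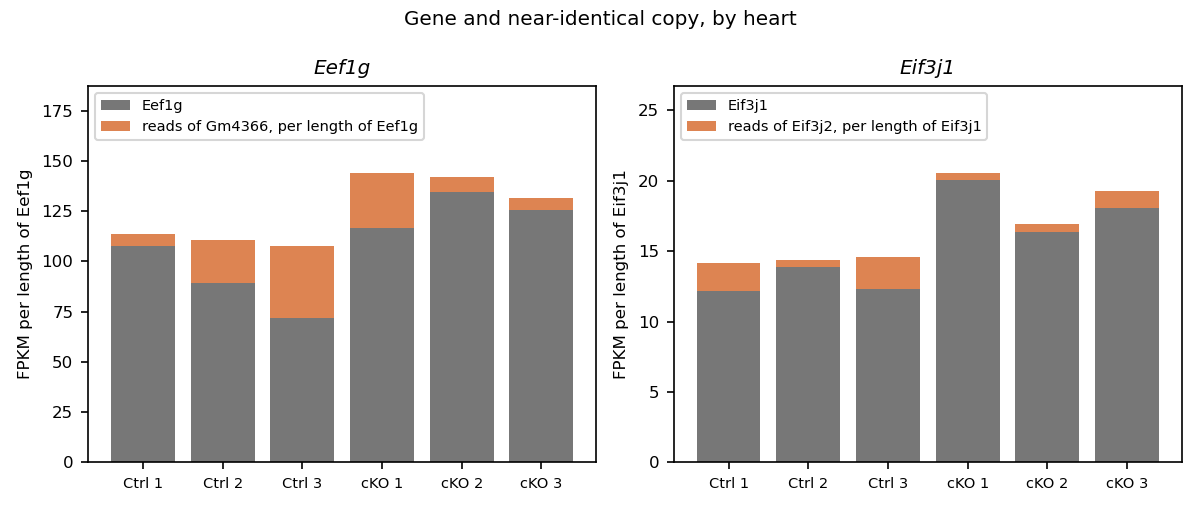
Stacked bars of FPKM per heart for Eef1g with the reads of Gm4366 (left) and Eif3j1 with the reads of Eif3j2 (right), both at the length of the first gene. The full bars are more even within Ctrl, at 108 to 114 FPKM for Eef1g and 14.1 to 14.6 FPKM for Eif3j1, than the grey parts alone.

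Eef2 encodes the translocating factor, and Eef2k the kinase that phosphorylates and slows it. Eef2 had 608, 584 and 586 FPKM in the Ctrl hearts, against 737, 739.8 and 719.5 FPKM in the cKO hearts. The hearts of each group were close together, and Eef2 rose by 0.30 (SE 0.0719, adjusted p = 0.0184). Eef2k had 6.76, 7.91 and 7.11 FPKM in the Ctrl hearts, against 5.99, 5.70 and 5.61 FPKM in the cKO hearts. It fell by 0.29 on the log2 scale (SE 0.0780, adjusted p = 0.0302). Groups did not overlap for Eef2 or Eef2k. The call of Eef2 was lost without Ctrl replicate 2 (0.29), Ctrl replicate 3 (0.30) or cKO replicate 1 (0.30), and also with the atrial covariate (adjusted p = 0.0807) and without a filter on low values (adjusted p = 0.0699). That of Eef2k was kept only without Ctrl replicate 1 (-0.31 to -0.23 without each other heart).

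Among the methyltransferases that modify eEF1A or eEF2, 2 of 4 tested genes were higher. Eef1akmt4, which methylates a lysine of eEF1A, had 1.07, 1.07 and 1.77 FPKM in the Ctrl hearts, against 2.82, 2.20 and 2.07 FPKM in the cKO hearts, so that the log2 fold change was 0.55 (SE 0.145, adjusted p = 0.0262). The call of Eef1akmt4 was lost without Ctrl replicate 1 (0.48), Ctrl replicate 2 (0.48) or cKO replicate 1 (0.46). Eef2kmt, the methyltransferase of eEF2, rose by 0.50. Eef1akmt2 (0.21) and Eef1akmt1 (-0.05) were not called. Eef1akmt3 was at 0 to 0.152 FPKM and was not tested.

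Genes that work beside these factors were taken from lists of translation genes outside the naming rule, 43 in all, of which 13 were higher and 5 lower. Among all 12944 genes tested, 16.3% were higher and 17.0% lower. The counts of single lists below were not tested against these shares. All 6 genes of termination and ribosome recycling were higher, with a median log2 fold change of 0.40. Abce1, the ATPase that splits terminated ribosomes, changed most, from 9.10 ± 0.367 to 16.1 ± 0.553 FPKM (0.76, SE 0.0679, adjusted p = 0.000993). The release factor genes Etf1 and Gspt1 rose by 0.67 and 0.45. Abce1, Etf1 and Gspt1 were called whichever heart was left out. The calls of the other 3 genes, Denr, Hbs1l and Pelo, depended on single hearts, so that 3 of the 6 genes were called without Ctrl replicate 1, 2 or 3 or cKO replicate 1.

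The genes for poly(A)-binding protein and its partners split. Pabpc1 and Pabpc4, which encode poly(A)-binding proteins, rose by 0.70 and 0.43. The 3 genes for PABP-interacting proteins were lower: Paip2b from 9.96 ± 0.660 to 5.45 ± 0.526 FPKM (-0.77, SE 0.0883, adjusted p = 0.00186), Paip1 (-0.43) and Paip2 (-0.36). Paip2 lost the call without Ctrl replicate 2 (-0.32) or Ctrl replicate 3 (-0.38), and when scaled to the total without the mitochondrial genome. Paip1 is known to stimulate translation, and Paip2 and Paip2b to inhibit it.

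The enzymes that make diphthamide, the modified histidine of eEF2, had 3 of 7 genes higher and none lower. Dph5 changed most, from 0.691 ± 0.149 to 2.05 ± 0.394 FPKM (0.85, SE 0.121, adjusted p = 0.00337). The hypusine enzyme genes Dhps (0.23, adjusted p = 0.0535) and Dohh (0.23, adjusted p = 0.220) were not called, and Dohh was called without cKO replicate 2 (0.37, adjusted p = 0.0220). Of the diphthamide genes, Dph3 was called only with all 6 hearts or without cKO replicate 2, and Dph1 was called without Ctrl replicate 2 (0.59, adjusted p = 0.0240), the 1 heart whose absence gave it a call. Scaled to assigned reads, 6 of the 7 diphthamide genes were called. Among 11 genes that control eIF4F, Mknk1, a kinase of eIF4E, rose by 0.71 (SE 0.0851, adjusted p = 0.00214) and Gigyf1, a partner of 4EHP, fell by 0.34. Gigyf1 lost the call without Ctrl replicate 1 (-0.33) or Ctrl replicate 3 (-0.29), which left Mknk1 as the 1 gene called. The other eIF4E kinase gene, Mknk2, was more abundant, at 101 ± 4.27 FPKM in the Ctrl hearts, against 81.9 ± 19.6 FPKM in the cKO hearts, and was not called (-0.33, adjusted p = 0.169). Without cKO replicate 1 it was called lower (-0.50, adjusted p = 0.0451). Pdcd4, an inhibitor of eIF4A, had a log2 fold change of -0.63 (adjusted p = 0.0511) and was called without cKO replicate 3 (-0.76, adjusted p = 0.0428).

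The selenocysteine elongation factor gene Eefsec rose by 0.55 (adjusted p = 0.0217), and its partner Secisbp2 was not called. Eefsec lost the call without Ctrl replicate 1 (0.57) or Ctrl replicate 2 (0.49). Of 10 genes for factors of mitochondrial translation, none was higher and 1 was lower, with a median log2 fold change of -0.12. Tufm, the mitochondrial counterpart of eEF1A, had 84.9, 102 and 101 FPKM in the Ctrl hearts, against 63.6, 70.4 and 70.5 FPKM in the cKO hearts, and fell by 0.49 on the log2 scale (SE 0.0969, adjusted p = 0.0104). The groups did not overlap for Tufm. Without Ctrl replicate 1, Mtif2, a mitochondrial initiation factor gene, was called lower as well (-0.42, adjusted p = 0.0227).

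Promoter sequence was examined for a feature that the naming rule did not use. The E-box CACGTG is the letter string bound by MYC, USF and related basic helix-loop-helix proteins, and it reads the same on both strands. RefSeq windows on GRCm38 from 250 bases before to 50 bases after a start site were at hand for 43 of the 59 genes, with several windows for a gene with several start sites. CACGTG was in a window of 13 of these 43 genes (30.2%), against 8.09% of all 27025 genes with a window. Those 27025 genes were not limited to genes expressed in heart, and a share among expressed genes was not computed. The string was in 6 of 22 genes called higher, 2 of 4 called lower and 5 of 17 others, so its presence did not separate the called directions. As a second string, TGATGNAAN, a form bound by ATF4 and C/EBP proteins, was searched on either strand. It was in a window of 1 of the 43 genes (2.33%), a gene called lower, against 4.50% of all genes. Genes without a window were not examined for either string. They include Eif4ebp1, Eif6, Eif1a, Eif2b3, Eif3h, Eif3i, Eef1d and Eef1g, all called higher. Such matches describe letters and not binding. The stretches below are those of the called genes, 1 site each, to show where CACGTG (in capitals, with 12 bases on either side) stands in genes that rose or fell. The first 6 belong to genes called higher and the last 2 to genes called lower, and each is written 5′ to 3′ in the direction of the gene.
Eif4a1, chr11:69672595-69672624, minus strand: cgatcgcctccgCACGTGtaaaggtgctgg
Eif5a, chr11:69921443-69921472, minus strand: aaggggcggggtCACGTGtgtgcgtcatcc
Eef2, chr10:81176576-81176605, plus strand: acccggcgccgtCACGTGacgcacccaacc
Eif3a, chr19:60790654-60790683, minus strand: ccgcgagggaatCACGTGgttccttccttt
Eif4h, chr5:134639488-134639517, minus strand: cggccgccgcacCACGTGggccgcagagcg
Eef1akmt4, chr16:20611497-20611526, plus strand: tgacggaagttcCACGTGtttgtgtggagc
Eif4e, chr3:138527192-138527221, plus strand: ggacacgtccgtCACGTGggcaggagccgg
Eef2k, chr7:120842788-120842817, plus strand: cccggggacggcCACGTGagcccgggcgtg

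The string stood at different distances from the start. Its first base was 189 bases before the start of Eif4a1, 185 before that of Eif5a, 43 before that of Eef2 and 23 bases after that of Eif3a. In Eif4e it was 64 bases before the start, with another CACGTG at 228 bases before. Eif5a and Eif4e therefore differ in direction of change while both hold the string at more than 1 place in their windows.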

How the data were processed

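Poly-A selected RNA of 3 Ctrl and 3 cKO hearts was sequenced as 150-base paired ends. Per the labels, the submitters' processing notes name HISAT2 2.0.5 and featureCounts 1.5.0-p3. The deposited FPKM values were computed by the authors from read counts and gene length, an other, gene-level value deposited with the table. Strand use and treatment of reads with several alignments were not given in the sources used here. The notes name mm9, but 53585 of 54495 shared gene identifiers had the start and end of GENCODE M21, so coordinates are GRCm38. The labels and the methods differ on the age of the mice at collection, and the labels were followed. The methods describe ventricular tissue.

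Whole reads were recovered from FPKM and gene length for 100% of values (tolerance 0.05 of a read), which gave the depth. The library size implied by the FPKM was not the assigned total, and how it was set was not given in the sources used here. The test was run on genes averaging 0.5 FPKM or more over 6 hearts, as log2(FPKM + 1), on which fold changes of low genes are understated, with limma 3.58.1 in R 4.3.3 (lmFit, eBayes with trend, two-sided). The Benjamini-Hochberg adjustment ran over all 12944 genes, with a threshold of 0.05. All adjusted p-values are from this fit or its alternatives. For shares, the exact permutation test was two-sided. The Eef1a1 share was planned, and the other ratios and sums were chosen after their values were seen. No 2 libraries were treated as 1, and the 3 animals of a group were taken as replicates. The fit was also run on simulated data drawn from the recovered reads and scaled to their totals. Those data held no difference in scaling between groups, so calls that depend on scaling were not tested by them.

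The genes, factor groups and lists were chosen with earlier results of these data known. Values per heart are given for the 4E-BP, eEF1A, eEF2 and Eef2k genes and, in each factor group, for the largest increase and decrease past the threshold, or the largest change where none passed. Of the lists beside the factors, the largest change past the threshold is given. Transcript stretches of 150 bases were compared between all annotated transcripts. Same-numbered hearts did not deviate together, so hearts were not paired. Left out were the 9 genes set aside by the naming rule, not analysed here.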

Additional observations from a re-analysis of the deposited data

How the results depend on the processing

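Of the 34 calls, 21 held under all 18 alternatives and 13 were lost in at least 1, and no called gene changed sign. Leave-one-out ranges were 21 to 28 genes higher, 2 to 4 lower, and a median log2 fold change of 0.22 to 0.26. By factor group these medians were 0.47 to 0.63 (40S initiation), 0.20 to 0.26 (eIF2 and its exchange factor), 0.33 to 0.44 (eIF3), -0.027 to 0.034 (eIF4F), -0.23 to -0.10 (4E repressors), 0.31 to 0.45 (eEF1B) and 0.28 to 0.40 (methyltransferases). Eif4ebp1 was at 1.23 to 1.46, Eif4ebp2 at -0.42 to -0.29 and the difference in Eef1a1 share at 22.3 to 26.5 percentage points.

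Scaling to the total without the mitochondrial genome gave 2 lower genes and medians of 0.32 (all factors), 0.65 (40S initiation), 0.31 (eIF2), 0.48 (eIF3), 0.078 (eIF4F) and 0.42 (methyltransferases), with Eif4ebp2 at -0.28 and not called. Voom on recovered reads gave 2 lower genes and medians of 0.43, 0.74, 0.39, 0.56, 0.15 and 0.63 in that order, -0.053 for the 4E repressors and 0.55 for eEF1B, with Eif4ebp2 at -0.23 and not called. Scaling to assigned reads, chosen after seeing the data, gave 2 lower genes and medians of 0.38, 0.71, 0.37, 0.54, 0.14, 0.47, -0.044 and 0.54 in the same order, with Eif4ebp2 at -0.22 and not called. It changes the library size alone, whereas voom also changes the pseudocount and weights, whose separate parts were not tested. The atrial covariate gave 2 lower genes, Eif4ebp2 at -0.39 and not called, and 0.30 for the methyltransferases, which a pseudocount of 0.1 FPKM moved to 0.45. Without both Ctrl replicate 1 and cKO replicate 2, an alternative chosen after seeing the data, 2 genes were lower, Eif4ebp2 was at -0.27 and not called, and medians were 0.50 (40S initiation), 0.27 (eIF2) and 0.044 (eIF4F). For the atrial covariate, the pseudocount and both hearts the cause was not tested.

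Genes near 0 changed sign without a call. Scaled to assigned reads, Eif1 and Eif2a were at 0.13, Eif4b at 0.085, Eef1akmt1 at 0.098, Eif3m at 0.080 and Eif3f at 0.035. Under median-of-ratios scaling, the total without the mitochondrial genome, voom and without both hearts, Eif1 was at 0.0053, 0.067, 0.13 and 0.084 and Eif2a at 0.023, 0.076, 0.15 and 0.032. Under the last 3 of these, Eif4b was at 0.024, 0.088 and 0.033 and Eef1akmt1 at 0.039, 0.093 and 0.087. Eif3m was at 0.020 without the mitochondrial genome and 0.083 with voom, and Eif3f at 0.036 with voom. Without single hearts the ranges were -0.066 to 0.048 (Eif1), -0.023 to 0.018 (Eif2a), -0.13 to 0.018 (Eif4b), -0.16 to 0.082 (Eef1akmt1) and -0.054 to 0.11 (Eif1b, and 0.12 without both hearts).

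Replicate numbers did not pair the hearts: deviations of same-numbered hearts correlated at -0.06, 0.17 and -0.01. With a replicate block there were 23 higher and 3 lower genes, and the Eef1a1 share differed by 24.3 percentage points. With 3 hearts a group, small changes such as those of Eif2b2 and Eif2b5 lie near what the fit can call, and the shares could not reach p under 0.1.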

Other observations

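Processed pseudogenes named after translation factors, or sharing sequence with them, carried values of their own. Gm2999 was lower in cKO, at 23.9 ± 3.47 FPKM in Ctrl and 17.2 ± 1.85 FPKM in cKO hearts (limma log2 fold change -0.45, adjusted p = 0.0331). Eif1-ps1 was at 1.08 ± 0.157 and 1.90 ± 0.917 FPKM and was not called. Between Eif4a-ps4 (1.11, adjusted p = 0.000993) and its parent Eif4a1 (1.10) the log2 fold changes were alike, as they were for Gm9892 (1.36, adjusted p = 0.000190) and Eif2s2 (1.21). How reads that match both copies were assigned was not given in the sources used here.

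Rev1, which overlaps Eif5b on the opposite strand over 16.8% of the exonic bases of Eif5b, was lower in cKO (-0.40, adjusted p = 0.0221). Alg1, which overlaps Eef2kmt over 17.6%, had a log2 fold change of -0.08 and was not called, whereas Eef2kmt was higher.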
